A study of Mus musculus with 34 samples.

Results

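Definitive endoderm (DE) of the wild-derived strain WSB/EiJ was compared with DE of the reference strain C57BL/6J. The libraries were chosen by strain label: 2 WSB/EiJ lines (named AC627 and AC635) and 5 C57BL/6J lines, 7 of the 34 libraries of the series. RNA of 17 DE libraries and 17 libraries of primed pluripotent epiblast stem cells (EpiSC) from 7 inbred mouse strains was sequenced. Each library is 1 cell line, and each EpiSC line had been converted from embryonic stem cells and was collected at low passage. All groups were grown as EpiSC on irradiated mouse embryonic fibroblasts with 12.5 ng/mL FGF, 20 ng/mL activin and 175 nM of a tankyrase inhibitor. All DE groups then received 3 uM CHIR, which inhibits GSK3, and 40 ng/mL activin for 16 h. They next received 100 ng/mL activin and 100 nM LDN-193189, an inhibitor of BMP receptors, for 24 h, and cells bearing CXCR4 were taken by magnetic sorting at 40 h. A further 3 DE groups served as a second reference: NOD/ShiLtJ (2 lines), NZO/HiLtJ (2 lines) and PWK/PhJ (4 lines), while CAST/EiJ and DBA/2J had 1 line each. The EpiSC libraries of the same 2 WSB/EiJ and 5 C57BL/6J lines were used to set each difference beside its value before differentiation.

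Definitive endoderm is the germ layer that forms gut, liver, pancreas and lung. In the embryo it arises from the anterior primitive streak under high Nodal signalling, which activin mimics in culture because both use the same type I and type II receptors and SMAD2 and SMAD3. Nodal itself needs the co-receptor Cripto (encoded by Tdgf1), whereas activin does not. Wnt signalling, which CHIR switches on by stabilising beta-catenin, acts through the TCF and LEF transcription factors in the early streak. CXCR4, the receptor of the chemokine CXCL12, is a surface marker of definitive endoderm and was the antigen used for sorting in every DE group.

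Total counts were 58.1 M (mega) in AC627 and 28.5 M in AC635, and 24.0 to 67.7 M in the 5 C57BL/6J DE lines. The 18 definitive endoderm markers summed to 16829 to 19127 CPM (counts scaled by the library total and its TMM factor) in the WSB/EiJ lines and 10081 to 23794 CPM in the C57BL/6J lines. Much of this sum was Cer1 (9060 to 10020 and 3521 to 10355 CPM). Trh, at 172 to 1044 and 784 to 6018 CPM, varied widely between lines, so the sum says little about the other markers. The 14 core pluripotency genes summed to 1442 to 1839 CPM and 751 to 1620 CPM. Most of that sum was Sall4 (1281 to 1578 and 521 to 1358 CPM), while Sox2 was at 0 to 0.289 and 0.118 to 2.56 CPM and Pou5f1 at 2.38 to 2.71 and 0.861 to 12.4 CPM. The median absolute log2 difference over all tested genes was 0.321 between the 2 WSB/EiJ lines and 0.326 to 0.751 between pairs of C57BL/6J lines. Pairs made of 1 line of each strain differed by 0.370 to 0.749, so the strains did not stand apart from the spread between lines over the transcriptome as a whole. The 4 Y-linked genes examined summed to 257 to 303 CPM in the WSB/EiJ lines and 70.0 to 260 CPM in the C57BL/6J lines. Reads of every strain were aligned to mm10, which is a C57BL/6J genome, so differences in alignment and in expression cannot be told apart. The C57BL/6J and DBA/2J lines carry plain numbers and the lines of the other strains carry AC or WM names (1 PWK/PhJ line, AC705, is titled ALT), so any difference in origin or handling between these sets cannot be told apart from the strain in the comparison with C57BL/6J.

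Of 19290 genes tested, 439 (2.28%) passed an adjusted p of 0.05 (quasi-likelihood test of edgeR, p-values adjusted by Benjamini-Hochberg, all 17 DE libraries in the fit). Of these, 229 (1.19% of the genes tested) were higher and 210 (1.09%) lower in WSB/EiJ. The median log2 fold over all genes was -0.03. An unadjusted p under 0.05 (edgeR), which is also counted for the lists below, was reached by 2338 of the 19290 genes. Of the calls, 220 of the higher and 202 of the lower genes differed at least 2-fold. Predicted genes made up 137 of the calls and are not named. The count depends on both WSB/EiJ libraries: it was 135 without AC627 and 168 without AC635, where the lone WSB/EiJ line is assumed to vary like the other groups, and 227 when the 7 compared libraries were fitted alone (100 higher and 127 lower). DESeq2 called 955, 396 higher and 559 lower, so neither the count nor which direction holds more calls is stable across these fits.

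Cxcr4 rose most among the definitive endoderm genes. Its values were 418 and 413 CPM in AC627 and AC635, and 62.9, 71.2, 82.4, 65.2 and 78.0 CPM in the 5 C57BL/6J lines. Both WSB/EiJ lines lay above every C57BL/6J line and above the other 10 DE libraries, of which the highest was the CAST/EiJ line at 187 CPM. The difference was 2.53 ± 0.26 (SE) on the log2 scale (adjusted p = 4.6e-05, edgeR). Cxcr4 (chr1:128588199-128592293, minus strand) encodes the antigen of the sort, so every DE library is of cells taken for this protein on the surface. In these sorted populations, more cells with the transcript and more transcript per cell cannot be told apart.

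Cxcr4 was the only definitive endoderm marker of 18 tested that passed in edgeR or DESeq2, and the list's median log2 fold was 0.27. Sox17, the endoderm-specifying transcription factor, was at 1195 to 1385 CPM in WSB/EiJ and 903 to 1416 CPM in C57BL/6J. Foxa2, a pioneer factor of endoderm, was at 111 to 124 CPM and 74.4 to 120 CPM. Hhex, a transcription factor of anterior endoderm, was at 602 to 621 CPM and 473 to 745 CPM, and Cer1, a secreted Nodal and Wnt antagonist, at 9060.5 to 10020.4 CPM and 3521 to 10355 CPM. The ranges of the 2 strains overlapped for each of these genes. Foxq1 (595 to 764 against 272 to 551 CPM), Flrt3 (298 to 340 against 97.4 to 252 CPM) and Foxa3 (9.21 to 12.3 against 0.716 to 5.80 CPM) did not overlap, with adjusted p of 0.28, 0.14 and 0.30 in edgeR. With Cxcr4 they were the 4 genes of the list at an unadjusted p under 0.05.

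Tdgf1 was lower in WSB/EiJ. It was at 20.0 and 17.9 CPM in AC627 and AC635, and at 115, 157, 179, 167 and 166 CPM in the C57BL/6J lines. No C57BL/6J line came near the WSB/EiJ values, and the lowest of the other 10 DE libraries was the CAST/EiJ line at 32.0 CPM. Tdgf1 (chr9:110939603-110946158, minus strand) fell by 3.05 ± 0.37 (SE) on the log2 scale (adjusted p = 1.8e-04, edgeR).

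Among the 18 genes of the Nodal and activin pathway Tdgf1 was the only edgeR call, and the median log2 fold was -0.17. An unadjusted p under 0.05 was reached by 6 of them, and by 2338 of all 19290 genes tested. DESeq2 also called Fst, a secreted inhibitor of activin, which was at 6.12 to 6.47 against 7.46 to 33.7 CPM (adjusted p = 0.14 in edgeR). The ligand Nodal was at 149 to 165 CPM in WSB/EiJ and 209 to 260 CPM in C57BL/6J (log2 fold -0.56 ± 0.19, adjusted p = 0.17, edgeR). Cfc1, the other gene of the Cripto family in the list, was at 66.0 to 93.8 against 120 to 234 CPM (log2 fold -0.97 ± 0.42, adjusted p = 0.34, edgeR). For both genes the strains did not overlap but the test was not passed. The feedback inhibitors Lefty1 (6038 to 6114 against 5656 to 10322 CPM) and Lefty2 (688 to 728 against 308 to 2064 CPM) overlapped. The receptors Acvr1b and Acvr2b had log2 folds of -0.30 and -0.04, and the signal transducers Smad2 and Smad3 of 0.50 and 0.30, none of which passed. Smad2 did not overlap either, at 105 to 129 against 67.5 to 94.7 CPM, while Smad3 did (34.1 to 76.9 against 26.8 to 63.0 CPM).

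Lef1, a partner of beta-catenin that is itself a Wnt target, had the largest rise among the ranked genes. It was at 94.8 and 81.2 CPM in AC627 and AC635, and at 4.80, 5.93, 10.0, 9.63 and 9.99 CPM in the C57BL/6J lines. The other 10 DE libraries lay between 3.07 and 15.5 CPM, so the 2 WSB/EiJ lines were above all 15 remaining libraries. The log2 fold was 3.44 ± 0.43 (SE; adjusted p = 3.2e-04, edgeR). Lef1 (chr3:131110471-131224356, plus strand) shares exonic positions with the predicted gene Gm43352, and reads of the pair could be mixed.

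No other Wnt target passed in edgeR or DESeq2: Lef1 was 1 of 13 tested, and the list's median log2 fold was 0.02. Lef1 alone of the list had an unadjusted p under 0.05 (edgeR). Axin2, the most widely used readout of beta-catenin activity, was at 0.434 to 0.487 CPM in WSB/EiJ and 0.0783 to 3.11 CPM in C57BL/6J. Sp5 was at 8.89 to 14.3 against 7.01 to 65.0 CPM, and the Wnt antagonist Dkk1 at 196 to 217 against 213 to 693 CPM. Tcf7, a second TCF/LEF factor, was at 82.1 to 86.4 against 41.9 to 80.3 CPM (log2 fold 0.25, adjusted p = 0.75, edgeR). Lef1 thus differed from C57BL/6J while the other tested genes of the list gave no call.

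**Figure D1:**
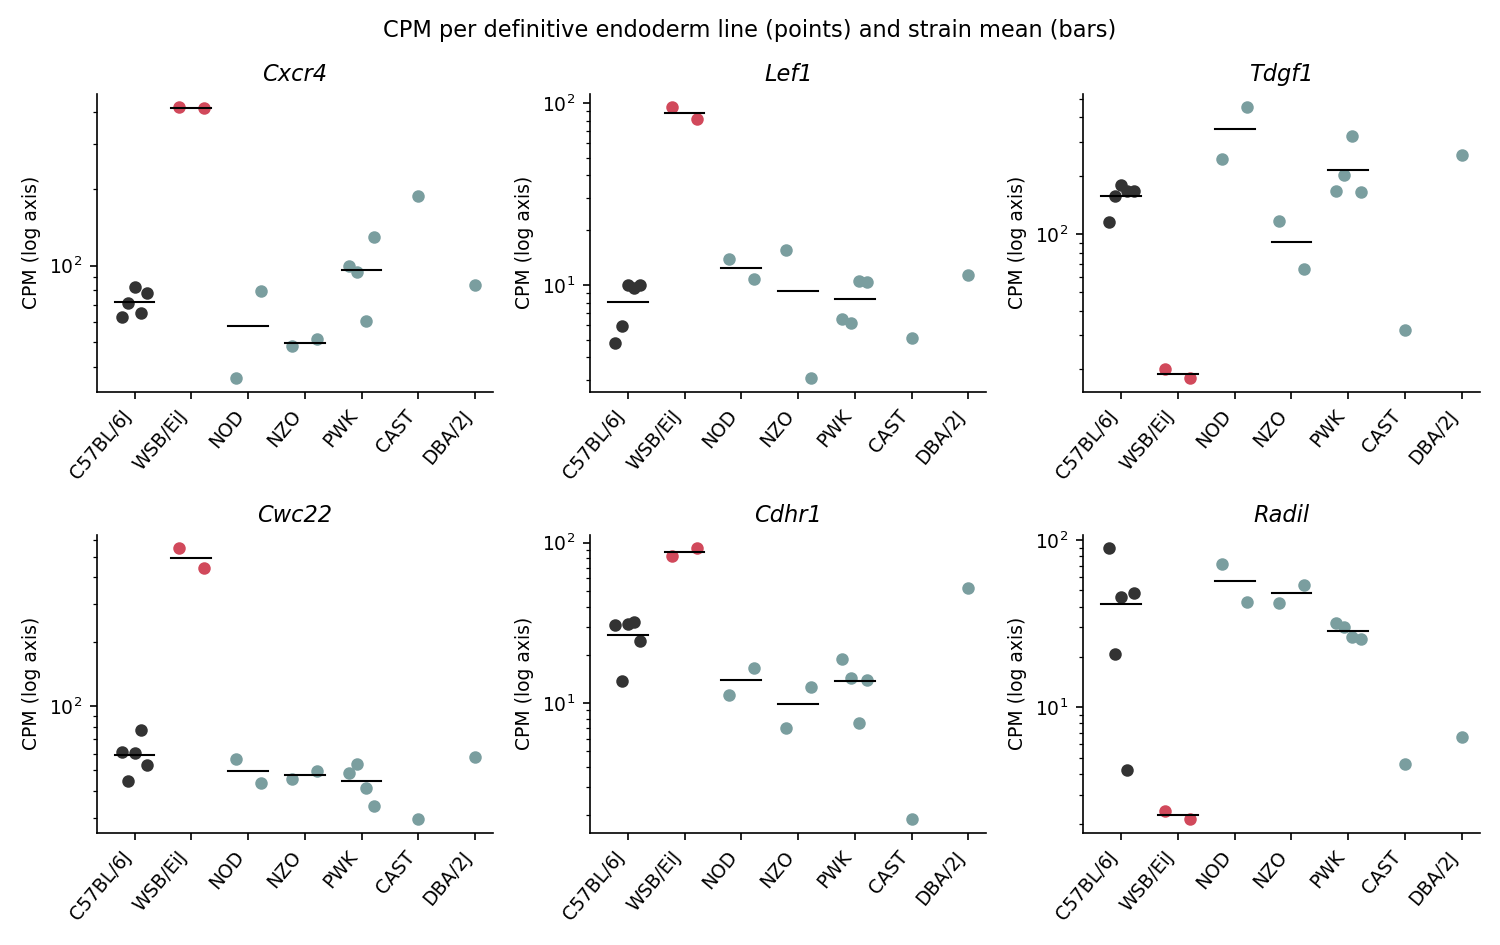
CPM (log axis) of 6 genes in each DE line (points) by strain, with the strain mean as a bar. The WSB/EiJ points of Cxcr4 (418 and 413 CPM), Lef1, Cwc22 and Cdhr1 lie above all other lines, and those of Tdgf1 (20.0 and 17.9 CPM) and Radil lie below them.

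The primitive streak list had the lowest median of the lists with at least 10 genes tested, -1.05 over 12 genes, with 8 genes below 0. None passed in edgeR, 3 had an unadjusted p under 0.05, and DESeq2 called 2, Wnt3 and Evx1. The median was -0.69 without AC627 and -1.86 without AC635. It was -0.70, -0.69 and -0.49 without C57BL/6J lines 1, 2 and 5-1, -0.651 with the 7 compared libraries alone and -0.645 without the NOD/ShiLtJ libraries. Several of its folds come from genes near 0, such as Cdx1, which was at 0 CPM in both WSB/EiJ lines and at 0 to 0.500 CPM in C57BL/6J. Among its expressed members, Eomes (200 to 228 against 127 to 223 CPM), Gsc (548 to 679 against 384 to 813 CPM) and Mixl1 (83.8 to 86.1 against 68 to 229 CPM) overlapped between the strains. Wnt3, the ligand that starts the streak, was at 2.22 to 4.41 against 12.3 to 24.3 CPM with no overlap (log2 fold -2.50 ± 0.72, adjusted p = 0.097, edgeR), and Fgf8 at 489 to 583 against 707 to 1245 CPM (adjusted p = 0.26). Brachyury (T) was at 2.67 to 2.68 against 0.686 to 18.7 CPM.

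Genes of other states gave no edgeR call. None passed among 14 core pluripotency, 7 naive pluripotency, 12 primed epiblast, 12 mesoderm, 8 endothelial and blood and 5 neuroectoderm genes tested, with median log2 folds of -0.21, -0.56, 0.07, -0.27, 0.24 and -0.97. In the same order 3, 1, 0, 2, 0 and 0 had an unadjusted p under 0.05, and DESeq2 called 1 core pluripotency gene (Nanog) and 3 mesoderm genes (Foxc1, Mesp2 and Pdgfra). Nanog, a core pluripotency factor, was nearest to the threshold, at 1.88 to 2.57 CPM in WSB/EiJ and 3.84 to 22.1 CPM in C57BL/6J (log2 fold -2.30 ± 0.59, adjusted p = 0.057, edgeR). In the FGF and ERK target list and the BMP list, 0 of 12 genes each passed in edgeR (medians 0.12 and -0.16), with 2 each at an unadjusted p under 0.05, and DESeq2 called Etv5 alone.

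Markers of the fibroblast feeder layer gave no call. All 15 tested had log2 folds above 0, with a median of 1.19. None passed in edgeR or DESeq2, and 2 had an unadjusted p under 0.05. Their sum was 182 to 569 CPM in the 2 WSB/EiJ lines, against 126 to 373 CPM in C57BL/6J and 155 to 2062 CPM in the other strains. The list's median was 2.08 without AC627 and -0.66 without AC635, so AC635 set its direction, and 2.24 without C57BL/6J line 2. Thy1, a defining fibroblast marker, was at 0.122 to 0.470 CPM in WSB/EiJ and 0 to 0.315 CPM in C57BL/6J, and Col1a1, a fibrillar collagen, at 25.8 to 67.0 against 2.98 to 36.7 CPM. The mesenchymal list behaved alike, with a median of 0.85 and 0 of 9 called in edgeR or DESeq2 (1 at an unadjusted p under 0.05), and its median was 1.51 without AC627 and -0.01 without AC635. With the fibroblast sum as a covariate 373 genes passed, of which 324 were among the 439. Cxcr4, Tdgf1 and Lef1 kept their calls, and Cldn6 (adjusted p = 0.12, edgeR), Dnajb1 (0.055), Sc5d (0.095) and Zrsr1 (0.098), described below, lost theirs.

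The 31 lists held 381 tested genes, of which 15 (3.94%) passed, 8 higher and 7 lower, against 2.28% of all genes tested. Besides Cxcr4, Lef1 and Tdgf1 these were Cwc22 and 11 genes whose calls were lost when a single library was left out. Smo, the hedgehog signal transducer, was at 339 and 290 CPM in AC627 and AC635 against 69.8 to 173 CPM in C57BL/6J (log2 fold 1.19 ± 0.26, adjusted p = 0.021, edgeR), and its adjusted p was 0.21 without AC627 and 0.083 without AC635. DESeq2 called 3 of the 16 hedgehog and retinoic acid genes (Smo, Gli1 and Stra6), of which Smo was the 1 edgeR call (median 0.25, 5 at an unadjusted p under 0.05), while Cyp26a1, which degrades retinoic acid, was at 843 to 921 against 134 to 482 CPM with an adjusted p of 0.17. Col4a1, a basement membrane collagen, was at 733 and 449 CPM against 125 to 299 CPM (log2 fold 1.37 ± 0.30, adjusted p = 0.025). Its adjusted p was 0.41 without AC627, and it was the 1 edgeR call among 10 basement membrane genes (median 0.31). Of these 10 genes, 3 had an unadjusted p under 0.05 (edgeR). Col4a1 shares exonic positions with Col4a2, which had a log2 fold of 1.21 (adjusted p = 0.061) and which DESeq2 called.

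Among 12 epithelial genes edgeR called 1 higher and 1 lower (median 0.21), and DESeq2 called 3, with Cldn7 (24.2 to 30.8 against 35.9 to 126 CPM) as the third. Of the 12 genes, 5 had an unadjusted p under 0.05 (edgeR). Cldn6, a tight junction protein of embryonic epithelia, was at 1098 and 1204 CPM against 494 to 834 CPM (log2 fold 0.84 ± 0.20, adjusted p = 0.042, edgeR). Krt18, a keratin of simple epithelia, was at 422 and 597 CPM against 1045 to 2121 CPM (log2 fold -1.44 ± 0.35, adjusted p = 0.047). Its partner Krt8 was at 1315 to 1487 against 1446 to 2062 CPM, which overlap. Neither call held without AC627 (adjusted p = 0.23 for Cldn6 and 0.50 for Krt18) or without AC635 (0.36 and 0.20). Leaving out C57BL/6J line 1, 4, 44 or 5-1 also moved both above the threshold, to between 0.054 and 0.094.

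Apoe, a lipoprotein component, was the 1 edgeR call among 11 visceral and extraembryonic endoderm genes (median 0.44), where DESeq2 called 3 (Apoe, Cubn and Rbp4). It was at 241 and 160 CPM in AC627 and AC635, and at 613, 1060, 537, 578 and 564 CPM in the C57BL/6J lines, a fall of 1.74 ± 0.38 (SE) on the log2 scale (adjusted p = 0.022, edgeR). The adjusted p was 0.14 without AC627 and 0.35 without AC635. Of the 11 genes of the list, 4 had an unadjusted p under 0.05 (edgeR). Hnf4a, a defining marker of visceral endoderm, was at 2.39 to 3.01 against 0 to 1.37 CPM.

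The remaining edgeR calls in the lists were single genes. DESeq2 called in addition Igf2 in the imprinted list, Ifi35 and Usp18 in the interferon list and Fos in the immediate early list. An unadjusted p under 0.05 (edgeR) was reached by 3 of 13 MHC class I and immunoproteasome, 4 of 24 imprinted and 4 of 15 interferon genes. The same held for 3 of 16 cholesterol synthesis, 3 of 13 immediate early and heat shock and 1 of 11 mitochondrial genes. H2-T23 was 1 of 13 in the MHC class I and immunoproteasome list (median -0.40), at 5.14 and 5.17 CPM against 0.656 to 2.02 CPM. The other strains had 1.43 to 41.3 CPM. Zrsr1 was 1 of 24 imprinted genes (median -0.14), at 6.92 and 8.64 CPM against 0.835 to 3.46 CPM, with 2.00 to 19.7 CPM in the other strains. It lies within Commd1. Irf1 was 1 of 15 interferon response genes (median -0.32), at 11.9 and 10.7 CPM against 18.7 to 35.7 CPM. Sc5d was 1 of 16 cholesterol synthesis genes (median 0.06), at 65.7 and 79.0 CPM against 124 to 263 CPM. Dnajb1, a co-chaperone, was 1 of 13 immediate early and heat shock genes (median -0.07), at 121 and 92.4 CPM against 170 to 267 CPM. Without AC627 the adjusted p of these 5 genes (edgeR) was 0.15 for H2-T23, 0.14 for Zrsr1, 0.30 for Irf1, 0.32 for Sc5d and 0.10 for Dnajb1. Without AC635 it was 0.14, 0.28, 0.38, 0.17 and 0.37 in the same order. Irf1 also lost its call without C57BL/6J line 1, 2, 4 or 44 (0.079, 0.051, 0.067 and 0.070), and Zrsr1 without line 44 (0.074). The mitochondrial gene mt-Nd3 was 1 of 11 in its list (median -0.27). It had 0 counts in AC627 and 2 counts in AC635 against 0.539 to 8.08 CPM in C57BL/6J (adjusted p = 0.0065, edgeR). Its log2 fold was -7.31, and -5.94 without AC627, where the call was lost. A low level was not particular to WSB/EiJ: mt-Nd3 was at 0.0636 to 1.07 CPM in CAST/EiJ, DBA/2J, NOD/ShiLtJ and NZO/HiLtJ. In PWK/PhJ it was at 5.33 to 12.0 CPM.

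Of the 31 lists, 17 held no edgeR call. Of their 190 tested genes 26 had an unadjusted p under 0.05 and 8 passed in DESeq2. Over all 19290 genes these counts were 2338 and 955, so the 17 lists together were near the share over all genes. They included glycolysis and hypoxia, where 17 of 20 genes were below 0 (median -0.36), and p53 targets, where 12 of 13 were below 0 (median -0.44) and DESeq2 called Phlda3. Cell cycle genes (0 of 16, median 0.06) and antioxidant and glutathione genes (0 of 17, median -0.11) gave no call either. Nnt, whose coding sequence is known to be partly deleted in C57BL/6J, was at 0.506 to 1.06 CPM in WSB/EiJ and 0.431 to 1.17 CPM in C57BL/6J, so its near-absence in every DE library checks nothing about the strain labels. The 4 Y-linked genes and the 2 X inactivation genes gave 0 calls (medians 0.56 and -1.33).

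**Figure D2:**
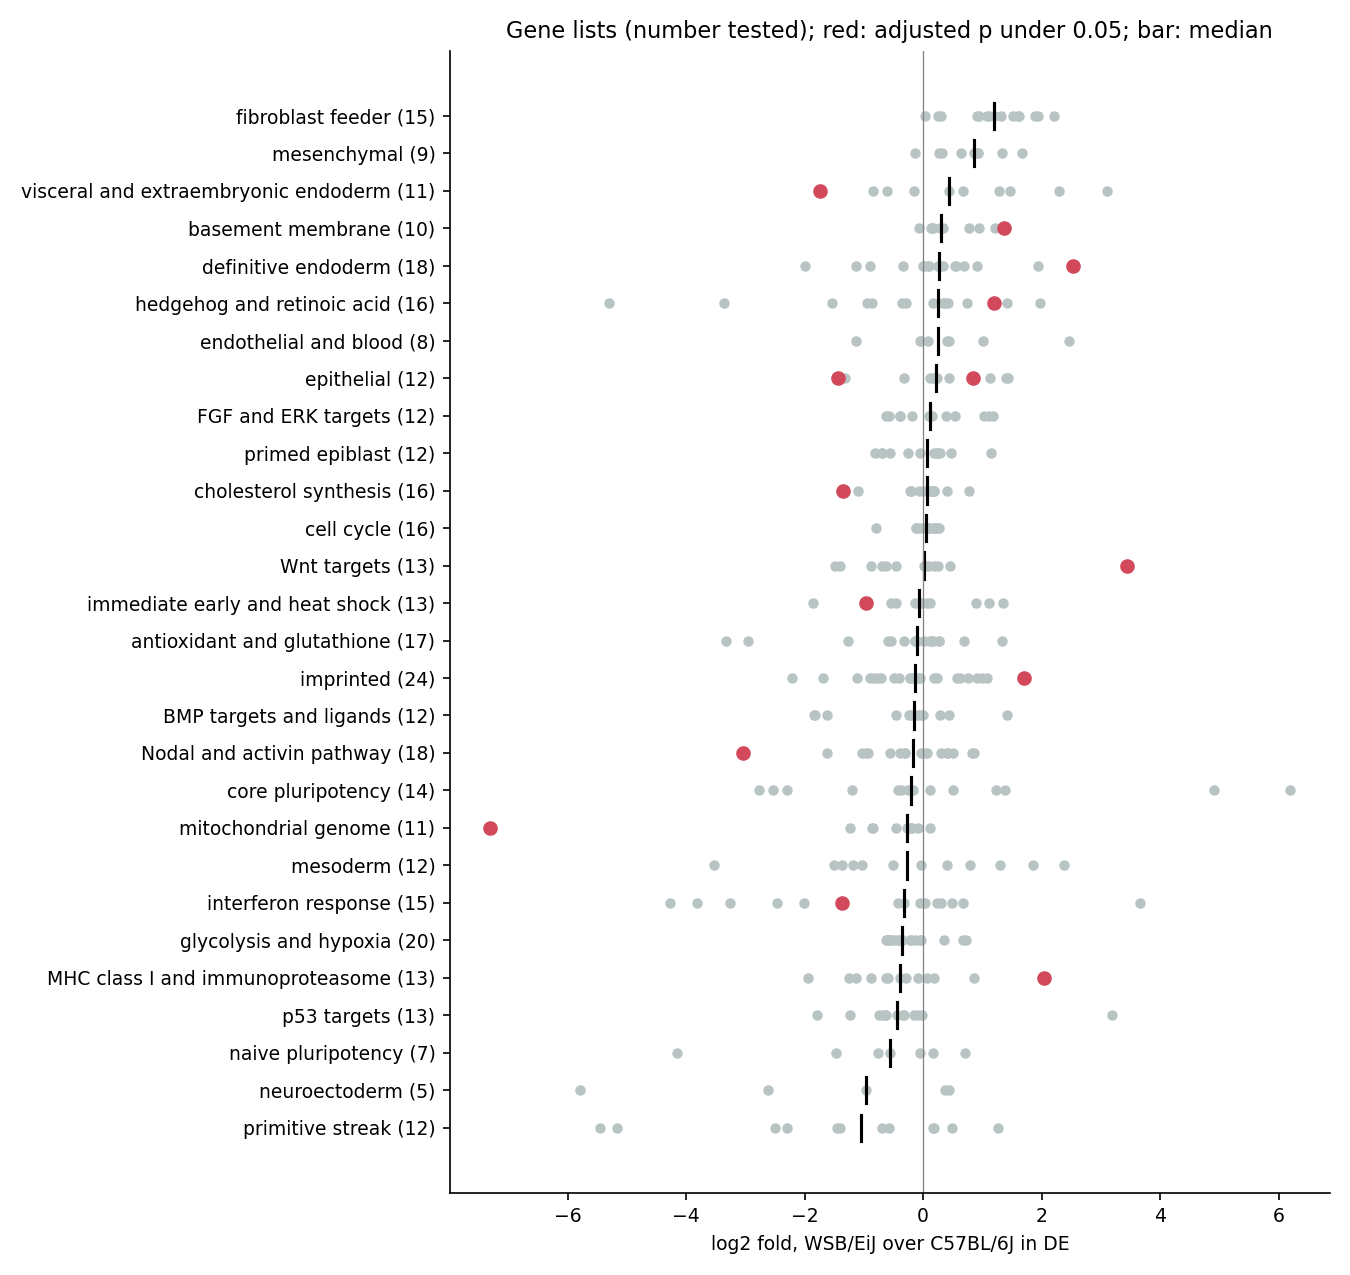
Log2 fold of WSB/EiJ over C57BL/6J in DE (horizontal axis) for each tested member (points) of the gene lists other than the Y-linked, X inactivation and strain check lists, with the number tested in brackets, genes that passed in red and the list median as a bar. The medians of the lists drawn run from -1.05 (primitive streak) to 1.19 (fibroblast feeder), and none of them has more than 2 edgeR calls.

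The 24 named genes with the largest folds were the 12 highest and the 12 lowest among 180 called genes (72 higher and 108 lower) that were expressed, that did not overlap between the 2 strains and that were not predicted genes. Besides Lef1 and Cxcr4, the higher genes were Cd151 (a tetraspanin), Ddx23 (an RNA helicase of the spliceosome), Ada (adenosine deaminase), Cwc22 (a spliceosome component), Pdlim4 (an actin-associated PDZ and LIM protein), Abhd2 (a serine hydrolase), Ung (uracil DNA glycosylase), Itpripl1, Hsf2 (a heat shock transcription factor) and Lcp1 (the actin bundler plastin). Besides Tdgf1, the lower genes were Pilra (an inhibitory receptor), Gprc5a (an orphan receptor), Tmem14c (a mitochondrial protein of haem synthesis), Med18 (a Mediator subunit), Cyp4f16 (a cytochrome P450), Radil (a Rap effector in adhesion), Cercam, Bphl (a serine hydrolase), Nebl (nebulette, an actin-binding protein), Slc35g2 and Usf1 (a transcription factor that binds E-boxes). No theme was tested among them.

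Ddx23 (chr15:98645134-98662894) was at 88.8 and 89.6 CPM in AC627 and AC635, and at 6.20, 14, 10.3, 7.01 and 8.15 CPM in the C57BL/6J lines. It rose by 3.29 ± 0.27 (SE) on the log2 scale (adjusted p = 4.5e-06, edgeR), and the other 10 DE libraries reached at most 23.8 CPM. Cwc22 (chr2:77881159-77946375) was at 548 and 441 CPM against 60.8, 44.7, 60.1, 77.3 and 53.1 CPM, a log2 fold of 3.06 ± 0.20 (adjusted p = 5.5e-07), with at most 57.8 CPM in the other strains. Cwc22 lies in a segment known to be present in many copies in WSB/EiJ, and its exons overlap those of the predicted gene Gm13727, so its count is uncertain. Ada (chr2:163726584-163750239) was at 46.8 and 50.4 CPM against 2.83, 8.54, 5.72, 2.35 and 7.98 CPM (log2 fold 3.14 ± 0.52, adjusted p = 0.0036), with up to 25.5 CPM elsewhere. The WSB/EiJ lines were above every other DE library for these 3 genes.

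Other risers were shared with further strains. Cd151 was at 168 and 192 CPM in the WSB/EiJ lines and 12.0 to 21.7 CPM in C57BL/6J (log2 fold 3.35 ± 0.29, adjusted p = 6.9e-06, edgeR), and it was at 211 to 277 CPM in the 4 PWK/PhJ lines and 286 CPM in the CAST/EiJ line. Hsf2 was at 70.3 and 65.2 against 7.33 to 14.3 CPM (log2 fold 2.56 ± 0.22, adjusted p = 7.5e-06), with 61.4 to 84.0 CPM in PWK/PhJ. Ung was at 101 and 112 against 8.29 to 33.0 CPM (log2 fold 2.62), with 145 to 195 CPM in PWK/PhJ and 105 to 108 CPM in NZO/HiLtJ. Itpripl1 was at 33.1 and 32.1 against 2.55 to 6.70 CPM, with 25.4 to 32.8 CPM in PWK/PhJ. Abhd2, at 71.2 and 37.3 against 4.85 to 11 CPM, and Pdlim4, at 45.5 and 41.1 against 2.20 to 10.3 CPM, also had PWK/PhJ lines at 42.0 to 61.3 and 32.5 to 41.8 CPM. For Lcp1 (110 and 104 against 6.13 to 31.7 CPM, log2 fold 2.42) the other strains reached 42.0 to 260 CPM, and its adjusted p of 0.018 became 0.13 without AC627 and 0.096 without AC635. Cd151 shares exonic positions with Gm10575, and Lcp1 with Gm15628 and Gm15629.

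Among the lower genes, Med18 (chr4:132458731-132463921) was at 2.55 and 3.29 CPM in AC627 and AC635, and at 46.8, 73.0, 55.1, 52.8 and 63.3 CPM in the C57BL/6J lines. It fell by 4.32 ± 0.27 (SE) on the log2 scale (adjusted p = 2.0e-07, edgeR), and the other 10 DE libraries had 16.0 to 63.4 CPM. Tmem14c (chr13:41016292-41022586) was at 0.851 and 2.17 CPM against 102, 184, 87.2, 82.7 and 119 CPM, a fall of 6.30 ± 0.54 (adjusted p = 7.3e-06). The 2 NOD/ShiLtJ lines were the next lowest for Tmem14c, at 5.69 and 10.9 CPM, and the remaining strains had 74.7 to 151 CPM. Usf1 (chr1:171411313-171419142) was at 8.5 and 10.2 CPM against 72.6, 88.5, 58.0, 93.7 and 50.6 CPM, a fall of 2.96 ± 0.26 (adjusted p = 7.9e-06), and shares exonic positions with Tstd1. All WSB/EiJ values of these 3 genes lay below all other DE libraries.

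Pilra had 38 and 19 counts in AC627 and AC635 (0.660 and 0.687 CPM) against 54.9 to 94.2 CPM in C57BL/6J, and it was also low in NZO/HiLtJ, at 2.85 and 0.427 CPM. Its exons overlap Zcwpw1 and it has close paralogs, so its counts are uncertain. Gprc5a had 32 and 18 counts (0.556 and 0.651 CPM) against 14.4 to 70.6 CPM, with 0 to 31.9 CPM in the other strains, and its adjusted p of 0.0067 (edgeR) became 0.14 without AC627 and 0.12 without AC635. Cercam (3.01 and 6.76 against 37.9 to 92.6 CPM, log2 fold -3.89), which overlaps 2600006K01Rik, was at 8.64 to 10.6 CPM in PWK/PhJ. Cyp4f16 (0.174 and 2.13 against 16.1 to 27.7 CPM, log2 fold -4.31) and Bphl (1.74 and 2.10 against 10.3 to 28.0 CPM, log2 fold -3.11) were lower in PWK/PhJ too, at 2.54 to 6.77 and 3.44 to 5.69 CPM. Cyp4f16 belongs to a family of near-identical genes. Nebl (7.37 and 5.96 against 27.1 to 88.3 CPM, log2 fold -3.08) had an adjusted p of 0.0045, which became 0.084 without AC627 and 0.10 without AC635. In the other strains Nebl ran from 8.37 to 66.7 CPM. Slc35g2 (1.89 and 3.04 against 12.9 to 28.1 CPM, adjusted p = 0.0033, edgeR) had a log2 fold of -2.98, and of -2.66 without AC627, where its call was lost. It was also low in DBA/2J (2.64 CPM) and NOD/ShiLtJ (3.17 and 3.86 CPM), with up to 69.5 CPM in the remaining strains. Radil (2.38 and 2.13 CPM) spread most within C57BL/6J, from 4.23 to 89.5 CPM, and its adjusted p of 0.015 for a log2 fold of -4.20 became 0.20 without either WSB/EiJ line.

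Across the 24 genes, the WSB/EiJ lines lay outside the range of all other DE libraries for 14. The 24 were chosen for large folds and no overlap with C57BL/6J, which favours this. The share over all genes was not counted, so 14 is a description of these genes only. The comparison with C57BL/6J alone therefore groups genes at a level that only the WSB/EiJ lines had among the lines sequenced with genes at a level that PWK/PhJ or other strains had as well.

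**Figure D3:**
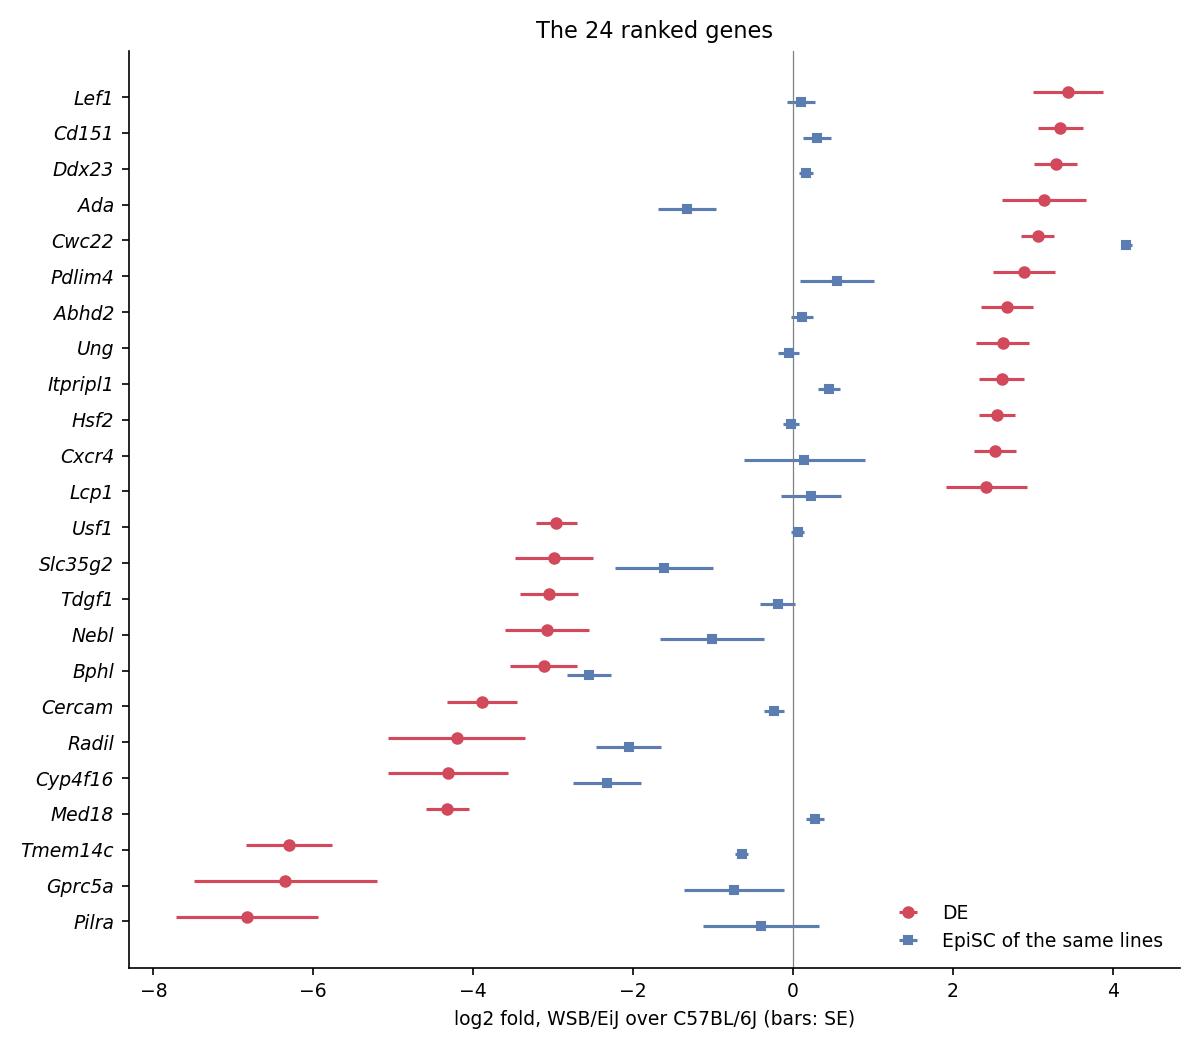
Log2 fold of WSB/EiJ over C57BL/6J (horizontal axis, bars SE) for the 24 ranked genes, in DE (circles) and in EpiSC of the same lines (squares). They have the largest folds among called genes that were expressed, not predicted and without overlap between the strains in DE. Lef1, Ddx23, Med18 and Tdgf1 have EpiSC values between -0.19 and 0.28, while Cwc22 and Bphl lie on the same side of 0 in both cell types.

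WSB/EiJ was next compared with the mean of NOD/ShiLtJ, NZO/HiLtJ and PWK/PhJ, whose cell lines are labelled with AC names like those of WSB/EiJ. Here 770 of 19290 genes (3.99%) passed, 418 higher and 352 lower. The count was 111 without AC627, 222 without AC635 and 506 without the NOD/ShiLtJ line AC576. The 2 comparisons share the WSB/EiJ libraries, so they are set side by side without a test. Cxcr4 was 2.67 ± 0.24 (SE) higher on the log2 scale (adjusted p = 1.4e-05, edgeR), Lef1 3.15 ± 0.39 (adjusted p = 3.5e-04), Ddx23 3.29 ± 0.24 (adjusted p = 1.9e-06) and Cwc22 3.38 ± 0.19 (adjusted p = 7.7e-08). Tdgf1 had a log2 fold of -3.32 ± 0.36 (adjusted p = 1.2e-04), and Med18 of -4.09 ± 0.26 (adjusted p = 3.5e-07). Ung and Lcp1, with log2 folds of 0.99 (adjusted p = 0.11) and 0.50 (adjusted p = 0.70), and Gprc5a (adjusted p = 0.058) were the 3 of the 24 genes that did not pass.

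Genes of this comparison were ranked among 72 that were expressed, not predicted, outside all other DE libraries and also called against C57BL/6J. The largest folds were those of Cwc22, Ddx23, Lef1, Cdhr1 and Cxcr4 among the higher. Among the lower they were those of Serpinb6c, Tmem14c, Radil, Med18 and Akr1b10. Cdhr1, a cadherin known from photoreceptors, was at 83.1 and 92.5 CPM in AC627 and AC635, 13.7 to 32.2 CPM in C57BL/6J and 1.88 to 52.2 CPM in the other strains. Its log2 fold was 2.83 ± 0.31 against the 3 strains and 1.73 ± 0.34 against C57BL/6J. Serpinb6c, a serpin with close paralogs, had 22 and 5 counts (0.382 and 0.181 CPM) in AC627 and AC635 against 14.4 to 29.1 CPM in C57BL/6J and 8.82 to 19.7 CPM elsewhere. Akr1b10, an aldo-keto reductase of a family of close paralogs, was at 0.799 and 1.92 CPM against 7.87 to 12.9 and 5.23 to 31.9 CPM. Radil lost its call against the 3 strains without AC627 (adjusted p = 0.18, edgeR) and without AC635 (0.14).

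Before differentiation, the EpiSC libraries of the same 7 lines gave 1324 calls among 17868 genes tested (7.41%), 617 higher and 707 lower in WSB/EiJ. The biological coefficient of variation was 0.241 in the EpiSC fit and 0.443 in the DE fit, and the call count was 526 without AC627 and 566 without AC635. Of the 439 genes called in DE, 409 were tested in EpiSC. There 194 were called with the same sign, which is 44.2% of the DE calls and 14.7% of the EpiSC calls, and 9 were called with the opposite sign. Another 134 had an absolute log2 fold under 0.5 in EpiSC. A stranded kit for polyA RNA was used for EpiSC, and a low-input kit that amplifies cDNA over 12 cycles from 2 ng of RNA for DE, so kit and cell type cannot be told apart in any of these differences.

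The difference between the strain effects was tested directly. It passed for 182 of 20907 genes (0.871%), 70 with a higher and 112 with a lower effect in DE than in EpiSC (edgeR, adjusted p under 0.05). The count was 110 with a block for the cell line. It was 79 without AC627 and 102 without AC635 in DE, and 76 and 72 without these lines in EpiSC. Of the 182, 172 were tested in both cell types: 87 were called in DE only, 32 in EpiSC only, 33 in both and 20 in neither.

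Lef1 and Tdgf1 passed this test, and Cxcr4 did not. In EpiSC, Lef1 was at 59.9 and 75.8 CPM in AC627 and AC635 and 54.8 to 75.5 CPM in C57BL/6J, which overlap (log2 fold 0.10 ± 0.17). The difference of effects was 3.34 ± 0.52 (adjusted p = 6.9e-04, edgeR). Its CPM in C57BL/6J was lower in DE than in EpiSC, and in WSB/EiJ it was not. Tdgf1 was at 720 and 723 CPM in EpiSC of WSB/EiJ and 508 to 1092 CPM in C57BL/6J, and its effects differed by -2.86 ± 0.41 (adjusted p = 2.2e-04). Cxcr4 was at 17.3 and 15.0 CPM in EpiSC of WSB/EiJ and 2.39 to 31.0 CPM in C57BL/6J. The spread between C57BL/6J EpiSC lines gave its difference of 2.39 an SE of 0.83, and it did not pass (adjusted p = 0.28).

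In all, 16 of the 24 genes passed the test of the difference, 8 in each direction, against 0.871% of all genes tested. The 24 were ranked by their folds in the same DE libraries, which favours passing, so this count is no finding about them. In EpiSC 7.41% of all genes tested were called, and 6 of the 24, 5 of them with the DE sign. Ada was the exception in sign: it was at 6.54 and 7.38 CPM in EpiSC of WSB/EiJ and 7.43 to 26.3 CPM in C57BL/6J (log2 fold -1.32, adjusted p = 0.045, edgeR). Cwc22 was at 2058 and 1775 CPM against 96.2 to 112 CPM, and Tmem14c (36.4 and 37.6 against 54.0 to 62.2 CPM), Bphl (1.26 and 1.58 against 6.76 to 10.5 CPM), Cyp4f16 (1.64 and 4.93 against 14.6 to 18.8 CPM) and Radil (6.24 and 5.23 against 12.8 to 37.8 CPM) were also lower in EpiSC. Cwc22 and Tmem14c nonetheless differed in size between the cell types, by -1.10 (adjusted p = 0.011) and -5.69 (adjusted p = 2.8e-08).

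Several genes with 4-fold or larger differences in DE gave no call in EpiSC. Ddx23 was at 175 and 186 CPM in EpiSC of WSB/EiJ and 140 to 183 CPM in C57BL/6J, Hsf2 at 54.6 and 57.2 against 53.8 to 63.2 CPM, and Cd151 at 101 and 104 against 61.6 to 115 CPM. In DE of C57BL/6J all 3 were at 21.7 CPM or less. Med18 was at 14.7 and 15.8 against 11.9 to 14 CPM and Usf1 at 84.1 and 87.1 against 73.6 to 91.6 CPM. Zfp146, a zinc finger gene, was at 91.4 and 86.3 against 68.6 to 83.0 CPM in EpiSC and at 3.65 and 3.33 against 12.3 to 38.0 CPM in DE (log2 fold -2.82 ± 0.43, adjusted p = 0.0020, edgeR). Zfp146 was also low in DE of NOD/ShiLtJ, NZO/HiLtJ and PWK/PhJ (4.45 to 7.92 CPM).

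**Figure D4:**
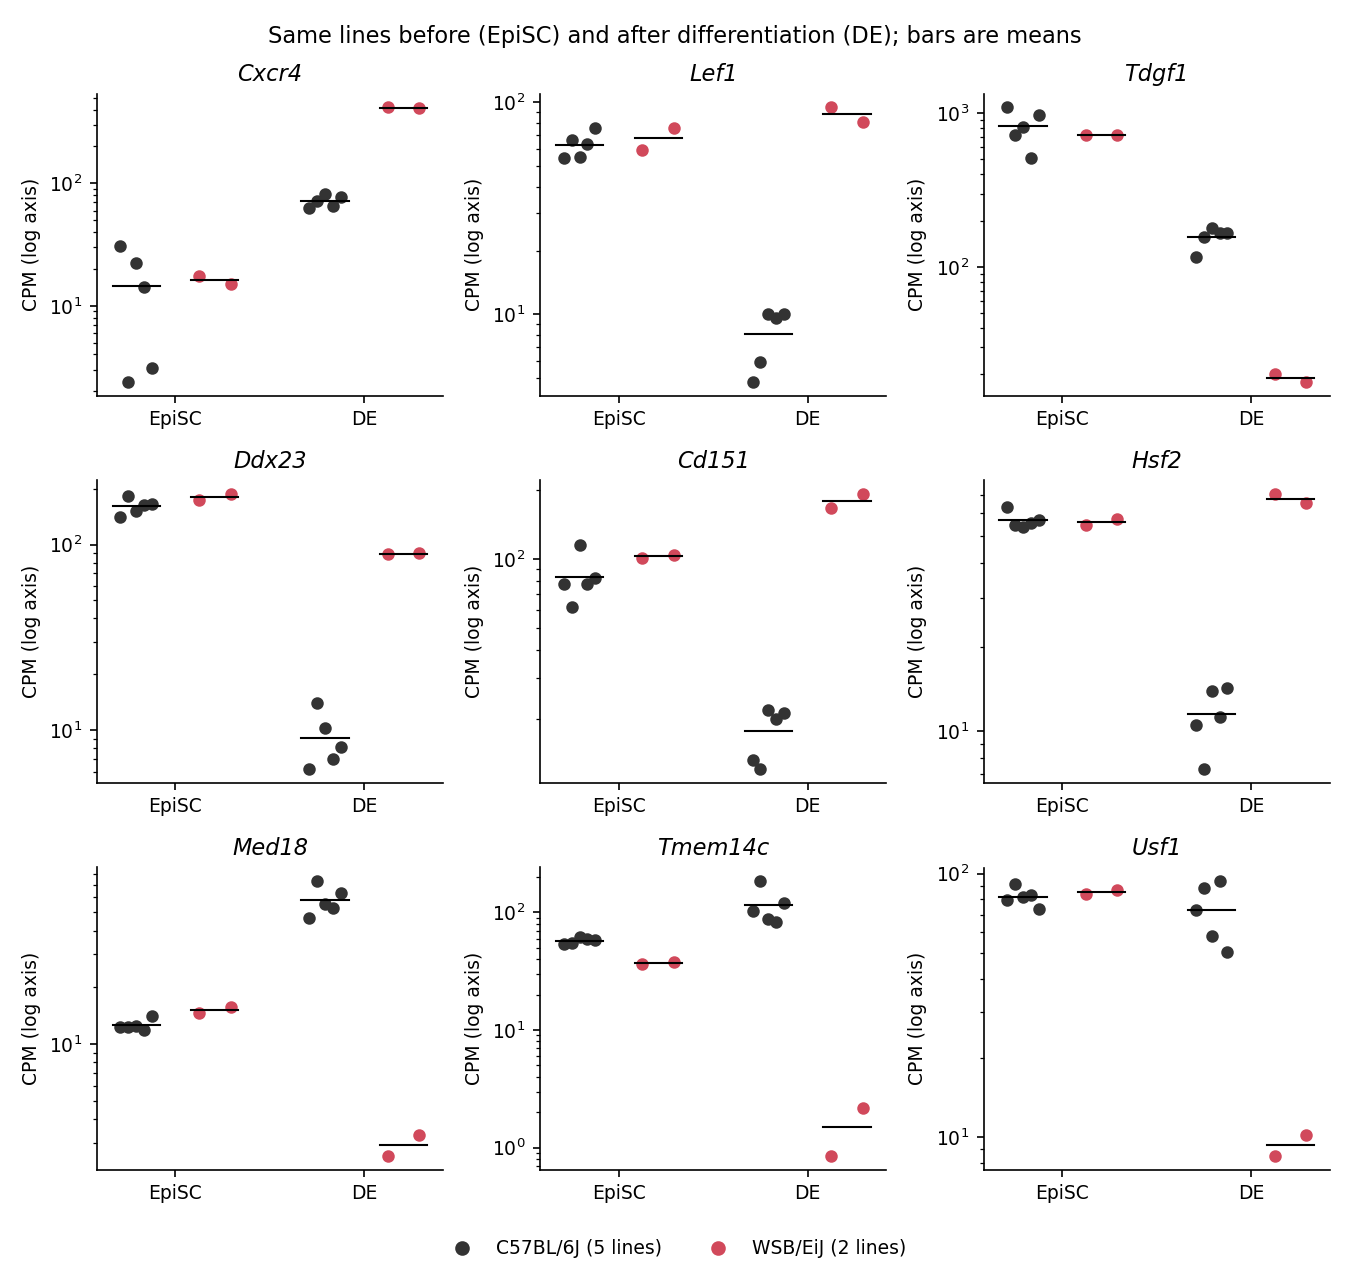
CPM (log axis) of 9 genes in EpiSC and DE of the same C57BL/6J (5) and WSB/EiJ (2) lines, with group means as bars. The strains overlap or lie close in EpiSC, apart from Tmem14c, and separate in DE, upwards for Cxcr4, Lef1, Ddx23, Cd151 and Hsf2 and downwards for Tdgf1, Med18, Tmem14c and Usf1.

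By position, 14087 tested genes that are not predicted genes could be placed on GRCm38, and 298 of these were called. The share of tested genes called ran from 0.426% on the X chromosome (2 of 470, exact binomial 95% interval 0.0516 to 1.53%) to 3.99% on chromosome 10 (27 of 677, 2.64 to 5.75%) over the autosomes and the X. Calls were found on every autosome, and the intervals treat neighbouring genes as independent. The X and chromosome 10 are shown because they are the extremes, and no difference between chromosomes was tested.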

How the data were processed

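The authors deposited raw read counts, with no normalization, in 1 table of 53655 genes for each cell type. The tools named per the submitters' processing notes are STAR 2.4 for alignment (build mm10), HTSeq 0.6.1 for counting and DESeq2, with no version. For annotation release, strand setting and multiply aligned reads the entry is not given in the sources used, so genes with near-identical copies or overlapping partners are uncertain. Totals were 24.0 to 67.7 M in the DE libraries compared and 26.1 to 31.1 M in EpiSC. Reads carry no molecular identifiers, and PCR copies are not independent. The SE come from the quasi-likelihood fit, whose spread is estimated between lines. The binomial intervals by chromosome concern the share of genes called and cover no spread between lines.

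The filter kept genes that reached 10 counts in 3 or more libraries. They were tested with edgeR 4.0.16 in R 4.3.3 by a robust quasi-likelihood fit on TMM-scaled counts (Benjamini-Hochberg adjustment over all tested genes, threshold 0.05). All libraries of a cell type shared one estimate of the spread, because 2 WSB/EiJ lines alone leave too little for it. The difference of strain effects was fitted over all 34 libraries. CPM are TMM-scaled. Lines are the replicates: no 2 libraries of a group agreed within sampling noise (lowest chi-square per degree of freedom 46.8 in the C57BL/6J and 50.8 in the WSB/EiJ DE libraries). Nothing in the labels gives sex, passage or batch per line.

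EpiSC and DE libraries of 1 line are paired by origin. Their deviations from the group means correlated at 0.167 for WSB/EiJ and 0.0392 to 0.179 for C57BL/6J, and the block was tried as an alternative. Named genes were the 12 largest folds in each direction (5 for the other comparisons) among called genes whose mean log2 CPM reached 3 and whose groups did not overlap (no such condition for the difference of effects), passing over predicted genes, plus members of 31 gene lists. The members and lists were chosen with earlier results of these data known. Alternatives were RLE scaling, DESeq2 1.42.0, no filter on low counts, leaving out each line, fitting the 7 compared libraries alone, covariates for fibroblast, Y-linked and pluripotency genes, and the line block. A covariate for depth (above or below 50 M) and fits without the NOD/ShiLtJ libraries were added after seeing the data. The scripts were tested on simulated counts. Positions are GRCm38 from GENCODE M21.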

Additional observations from a re-analysis of the deposited data

Results flagged for a closer look

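Among 39 named genes, 2 had a C57BL/6J DE line far from the other 4 lines. Line 2 was at 1060 CPM for Apoe, where the next line was at 613 CPM, and at 2121 CPM for Krt18, where the next was at 1334 CPM. Chance flags about 1 in 20 such groups. Both genes were called lower in WSB/EiJ, and both kept the call without line 2.

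The WSB/EiJ effect differed between DE and EpiSC for 22 of the 39 genes (edgeR, adjusted p under 0.05), and kit and cell type cannot be told apart in these differences. Over all genes tested 182 of 20907 (0.871%) passed. Some of the 39 were named for passing this same test and others for a DE call, so a high share was fixed or favoured in advance. On the log2 scale the DE effect exceeded the EpiSC effect by 4.458 for Ada, 3.341 for Lef1, 3.114 for Ddx23, 3.048 for Cd151, 2.675 for Ung, 2.584 for Hsf2, 2.57 for Abhd2, 2.232 for Cldn6, 2.153 for Itpripl1 and 1.128 for Smo. The difference was -6.422 for Pilra, -5.687 for Tmem14c, -5.593 for Gprc5a, -4.604 for Med18, -3.65 for Cercam, -3.026 for Usf1, -3.009 for Zfp146, -2.856 for Tdgf1, -1.723 for Akr1b10, -1.103 for Cwc22 and -0.9981 for Dnajb1. For mt-Nd3 the fitted difference was -6.677, which rests on 0 and 2 counts in the WSB/EiJ DE lines and depends on the prior count. Cldn6 changed sides: it was at 54.6 and 60.9 CPM in EpiSC of AC627 and AC635 against 101 to 196 CPM in C57BL/6J (log2 fold -1.39, adjusted p = 0.0015), and higher than C57BL/6J in DE.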

How the results depend on the processing

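None of the genes ranked or called in a list reversed its direction under any alternative run. List members that were not called were not followed 1 by 1. Without AC635 the list medians of fibroblast feeder (1.19 to -0.66) and mesenchymal genes (0.85 to -0.01) changed sign. Of 35 genes named for WSB/EiJ against C57BL/6J in DE, 19 kept their call under all 16 alternatives, and over 560 values 486 stayed on their side of the threshold while 74 no longer passed. Against NOD/ShiLtJ, NZO/HiLtJ and PWK/PhJ, 138 of 140 values kept the call (Radil did not, without AC627 or AC635), and for the difference of effects 180 of 180 did. Counts of calls moved more. The 439 calls against C57BL/6J (52.2% higher) became 955 with DESeq2 (396 higher and 559 lower, 41.5% higher), 1241 with no filter on low counts and 227 with the 7 compared libraries alone, and 135 to 558 with a line left out. The 770 calls against the 3 strains (54.3% higher) became 1819 with DESeq2 (39.9% higher), 1969 calls with no filter on low counts and 111 to 795 with a line left out. The 1324 EpiSC calls became 526 to 1425 with a line left out. The 182 differences of effects (38.5% higher) became 349 with DESeq2, 654 with no filter (50.6% higher) and 72 to 235 with a line left out. With the cell line as a replicate block they became 110, of which 97 were among the 182. The 15 list calls became 34 with DESeq2, 83 with no filter, 6 with the 7 libraries alone and 4 to 17 with a line left out. Where a WSB/EiJ line was left out, fewer samples entered the contrast, and the lone line is assumed to vary like the other groups. The cause of the other shifts was not tested. RLE scaling (442 calls), the fibroblast (373), Y-linked (342), pluripotency (542) and depth (437) covariates and the fit without NOD/ShiLtJ (414) stayed within 1.5 times of 439. With 2 WSB/EiJ lines and a biological coefficient of variation of 0.443 in DE, differences that missed the threshold are not shown to be absent.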
